A study of Physcomitrium patens with 4 samples.

Results

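Protoplasts of the moss Physcomitrella patens were kept in darkness for their first 24 h of culture and in a daily cycle of light and darkness after it, and the step described here is the one from 24 to 48 h. All genes with enough tags were compared between the library of cells at 24 h (t-24 cells) and the library of cells at 48 h (t-48 cells). Of 18800 genes in the count tables, 14312 had at least 10 tags in these libraries together and were tested, while 4488 had fewer and were not. The cells were wild type, released by Driselase from protonemata, the filaments of the young moss plant, and cultured in liquid medium with ammonium tartrate and mannitol as osmoticum and without added hormones. The series has 4 libraries (0, 24, 48 and 72 h after isolation), all from this wild type, and RNA was pooled into 1 library per time point. The 24, 48 and 72 h cells share medium and temperature, whereas the 0 h cells were taken fresh, before culture. Culture time and light changed together between 24 and 48 h and cannot be told apart. The labels name the cells only as protoplast cultures, and no cell type was called from markers. Days after the dark period had light for 16 h and darkness for 8 h, so the t-48 cells had passed through 1 such cycle, but the clock time of its start is not given in the sources used here.

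A moss protoplast can return to a stem cell and rebuild a whole plant without added hormones. It lays down a new wall, sets a new polar axis, and divides to give a filament. In plants, light drives the transcription of nuclear genes for the photosynthetic apparatus through phytochromes, cryptochromes and signals from the plastid. In prolonged darkness plant cells mobilise starch, amino acids and lipids and make less of their translation and photosynthesis machinery. Autophagy, branched-chain amino acid breakdown and the glyoxylate cycle are the usual routes of that mobilisation.

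Digital gene expression profiling counts a short tag at the 3′-most CATG of each transcript, so a count follows the number of transcripts and not their length. The gene tags summed to 1750184 at 24 h and 1964182 at 48 h, and to 2247746 and 2445814 at 0 and 72 h. More genes were seen at 24 h (16278) than at 48 h (13920), although the 48 h library was deeper. The paper lists the most distinct filtered tags of the series for the 24 h library, and the lowest share of them mapped. These libraries thus differed in tag diversity and mapping as well, and how far this adds to genes seen at 24 h only was not tested. Tags of 12894 genes were found at both times, of 3384 at 24 h and not 48 h, and of 1026 at 48 h and not 24 h. The last group included 325 genes with 10 tags or more, against 1575 such genes seen at 24 h and not 48 h. A count of 0 allows up to 3 tags, which is 0.000171% of the tags at 24 h and 0.000153% at 48 h. A fold written as "at least" takes such a count as 3 tags and the other count as printed, with no interval. Intervals below are exact conditional 95% intervals of a ratio and, like this floor, cover counting error only. Because of the scaling given next, an equal level corresponds to fewer tags at 48 h than at 24 h, so a fold below differs from the ratio of the printed tags. Fewer cells of a kind and fewer transcripts per cell cannot be told apart in such pooled RNA.

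Ratios were taken after scaling with TMM, which trims the log ratios between libraries and averages the rest, and its factors were 1.33 at 24 h and 0.914 at 48 h. A gene was called, and is said below to have risen or fallen, when the ratio was at least 4-fold, the higher library held at least 100 tags and edgeR's exact test of the 2 libraries passed. With 1 library per time point this test compares libraries and not conditions, there is no replicate check, and no p-value is given. By this rule 1074 genes (7.5% of those tested) were up-regulated and 985 (6.88%) were down-regulated, which is 14.4% together. Only 5131 tested genes reached 100 tags in either library, and 20.9% of these were called higher and 19.2% lower. The median log2 change of all tested genes was -0.30, and that of the 5131 with 100 tags was 0.13. Genes with fewer tags thus leaned lower at 48 h. A negative median in a list where few genes reach 100 tags cannot be read as particular to its function. Without TMM, on library totals alone, all changes moved by -0.54 on the log2 scale and the calls became 750 higher and 1323 lower. On clean tags the shift was -0.50 and the calls were 769 higher and 1294 lower. If a coefficient of variation of 0.4 between cultures is assumed (a dispersion of 0.16), 588 higher and 521 lower calls were left. Where total gene tags move a list's count by over 1.5 times, or that dispersion changes the direction with more calls, those counts stand beside it in brackets, after the list's median log2 change.

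**Figure D1:**
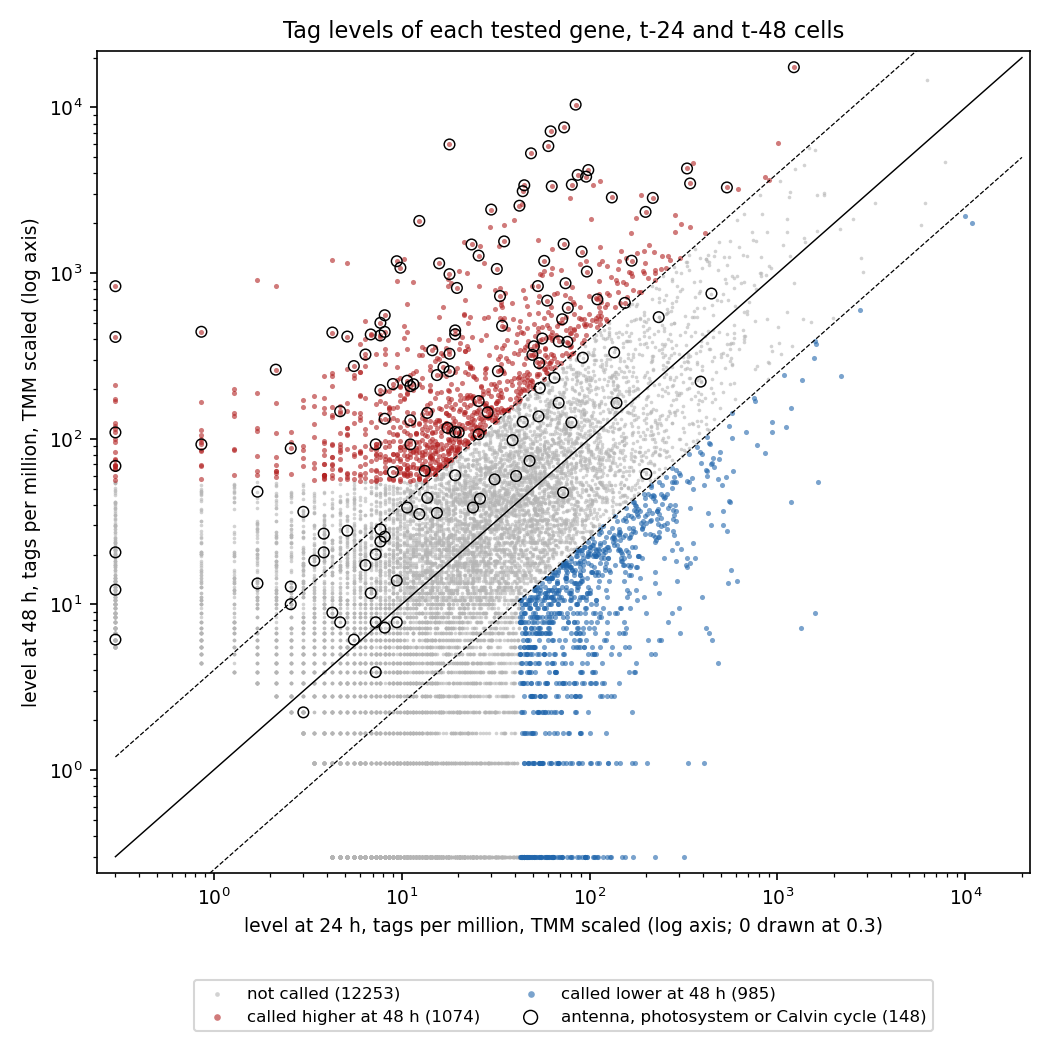
Level of each tested gene at 24 h (horizontal) and 48 h (vertical), in TMM-scaled tags per 1000000 on log axes, with a count of 0 drawn at 0.3. Solid and dashed lines mark equal levels and a 4-fold difference, red and blue points are the 1074 genes called higher and the 985 called lower, and circles mark antenna, photosystem and Calvin cycle genes, which lie almost wholly above the line of equal levels.

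The genes that rose were few in tags at 24 h and took a large part of the library at 48 h. They held 5.73% of the gene tags at 24 h and 41.9% at 48 h. As genes were picked by their 24 h and 48 h counts, the direction of the shares and medians given here follows from the choice. Values at 0 and 72 h that lie between those of 24 and 48 h can follow from it too. The same genes held 11.8% in fresh protoplasts and 11.7% at 72 h, libraries that played no part in choosing them. The genes that fell held 21.5% at 24 h and 1.94% at 48 h, beside 14.9% at 0 h and 9.64% at 72 h. The median level of a gene that rose was 39.2, 18.0, 164.0 and 54.2 scaled tags per 1000000 at 0, 24, 48 and 72 h. For a gene that fell it was 65.1, 85.2, 9.47 and 31.8. Among the later libraries, the median of the genes that rose was nearest to its 0 h value at 72 h, and that of the genes that fell at 24 h.

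To describe functions, 54 gene lists were drawn from the symbol and description of each gene's best Arabidopsis match, and for each list the members called are given beside the 7.5% and 6.88% of all tested genes. Lists for the antenna, the photosystems, chlorophyll synthesis, the Calvin cycle and expansins held far more members that rose than that background, and none or 1 that fell. Lists for ribosomal proteins, mitochondrial respiration and lipid synthesis leaned the same way, more mildly. The lists with more members down than up included dark and starvation responses, small heat shock proteins, LEA and dehydrin proteins, AP2/ERF factors, calcium and kinase signalling, and cytochrome P450.

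**Figure D2:**
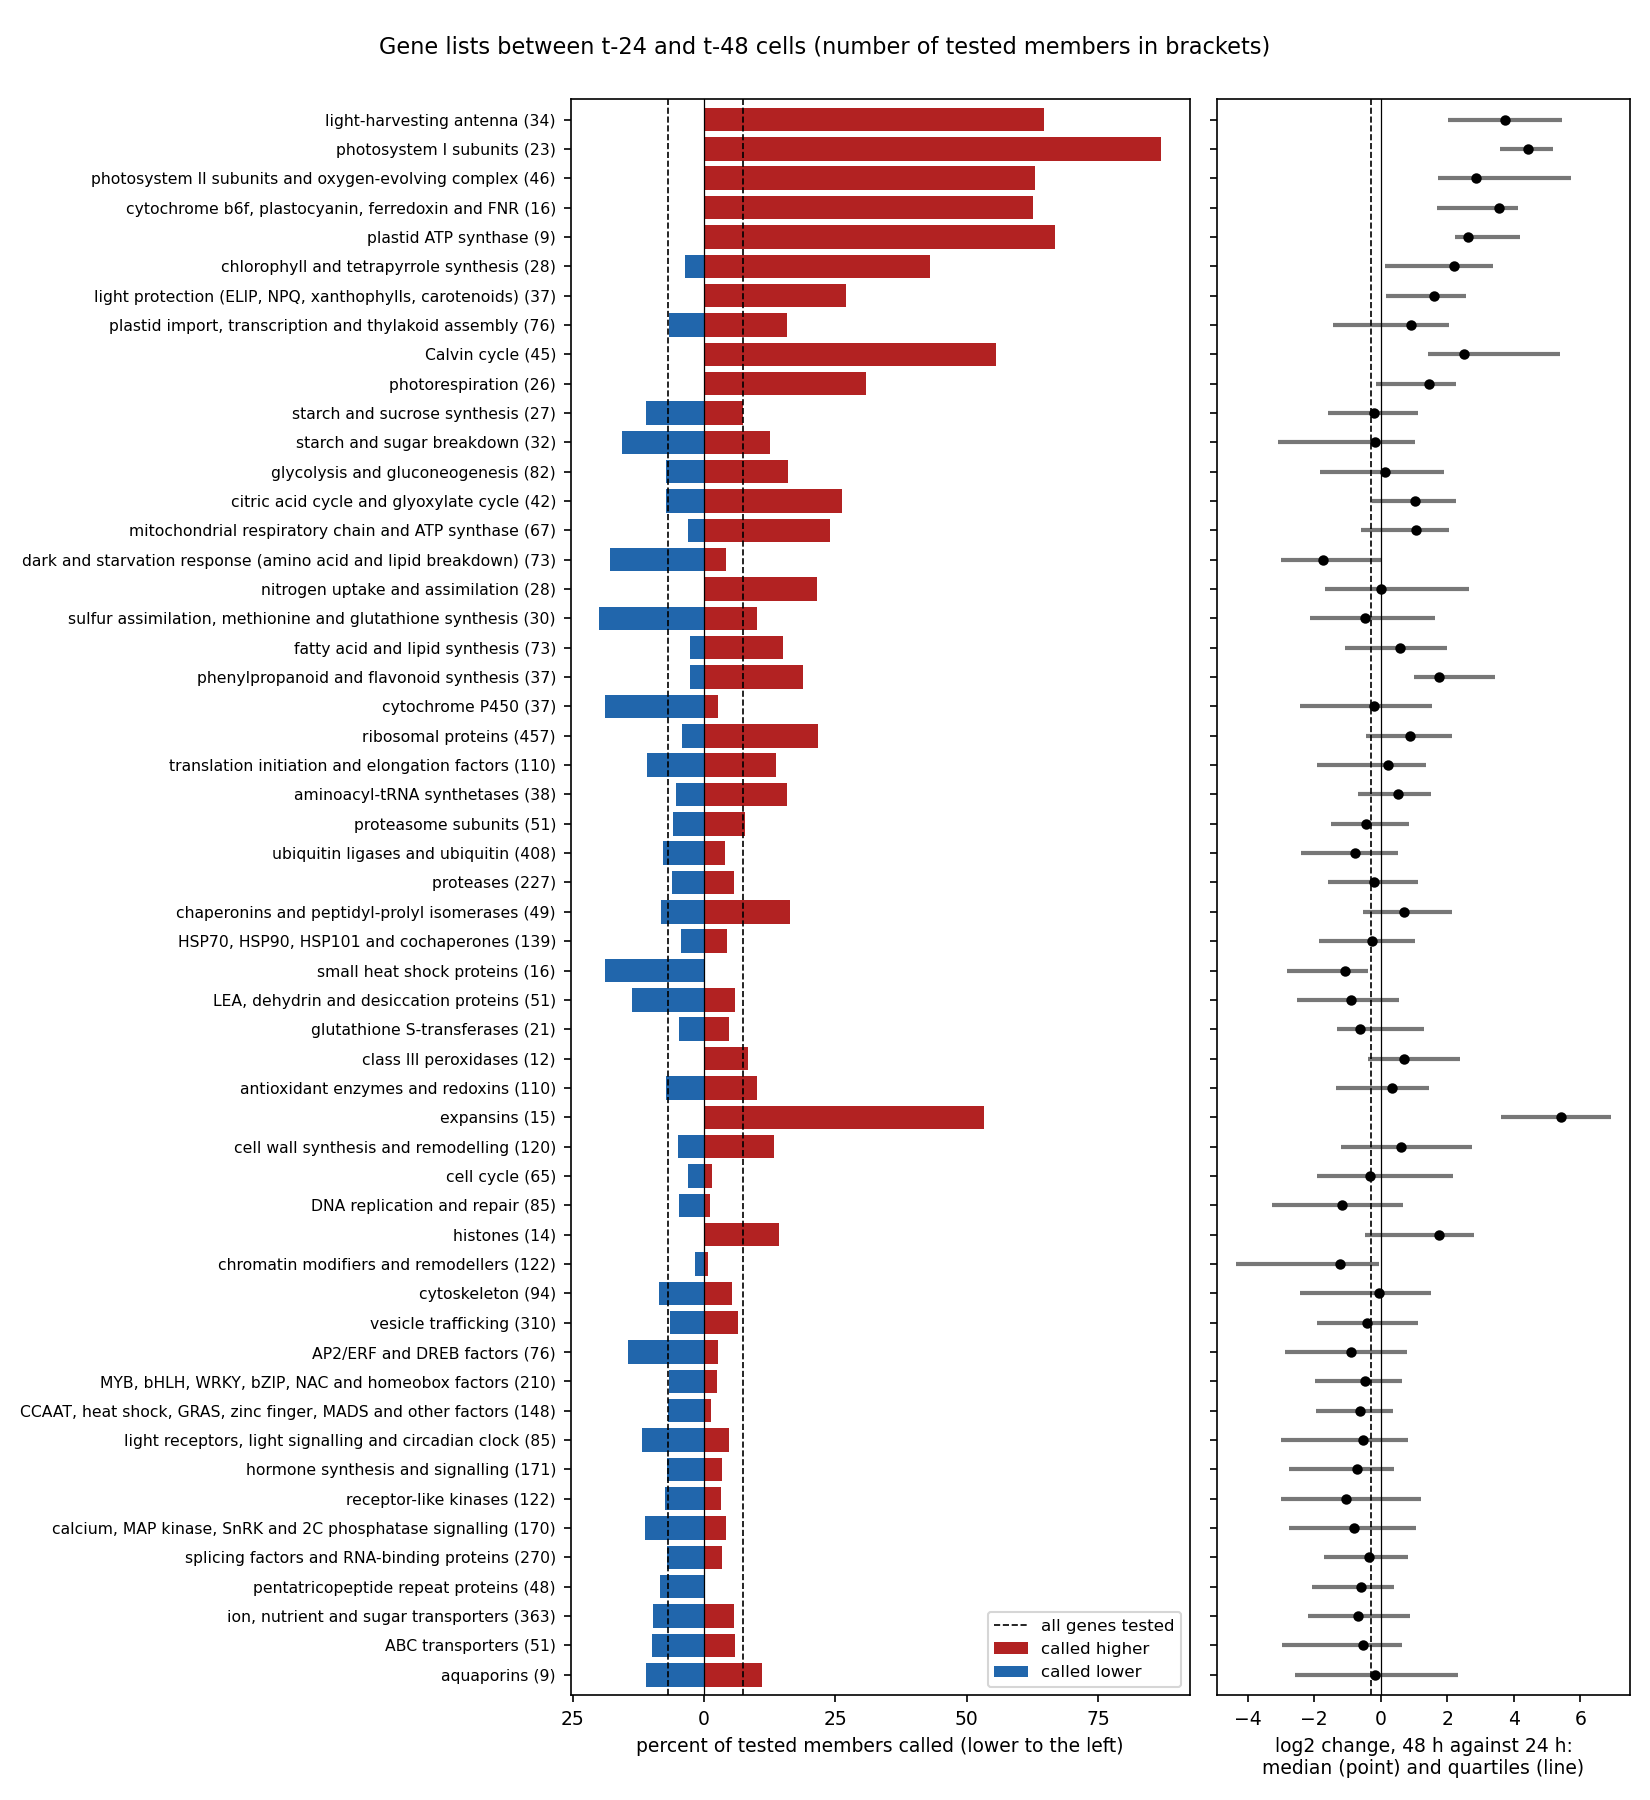
Left, percent of the tested members of each list called higher (red, to the right) or lower (blue, to the left), with dashed lines at the 7.5% and 6.88% of all tested genes. Right, median (point) and quartiles (line) of the log2 change of the tested members, with a dashed line at the median of all tested genes, -0.30; photosystem I subunits reached the highest share called, and the highest median was that of expansins (5.41), or of photosystem I subunits (4.44 against 4.38) with counts of 0 set to 3 tags.

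The light-harvesting antenna, chlorophyll-binding proteins that pass absorbed energy to the photosystems, was the part of the photosynthetic apparatus with the most tags at 48 h, and most of its genes rose. Of 36 antenna genes 34 were tested, 22 rose and 0 fell, with a median log2 change of 3.73. Together they held 0.389% of the gene tags at 24 h (0.38 to 0.398, Wilson 95%) and 5.85% at 48 h (5.82 to 5.88), beside 1.22% at 0 h and 1.3% at 72 h. LHCB3 (Pp1s254_3V6), an antenna protein of photosystem II, had 1626, 197, 18668 and 1630 tags at 0, 24, 48 and 72 h and rose 123-fold (107 to 143). LHCB5 (Pp1s6_312V6), a monomeric antenna protein, had 1966, 171, 13603 and 4173 tags in the same order and rose 104-fold (89.1 to 121). A gene matching LHCB2.1 (Pp1s19_13V6) had 254, 145, 12877 and 214 tags and rose 116-fold (98.1 to 137). The antenna of photosystem I moved the same way, with 735, 202, 7027 and 1937 tags for LHCA2 (Pp1s241_66V6), a rise of 45.3-fold (39.4 to 52.3). The gene with the most tags of the whole 48 h library, LHCB2.2 (Pp1s213_80V6), was already high at 24 h: it had 6420, 2855, 31399 and 15146 tags and rose 14.3-fold (13.8 to 14.9). Folds of the 22 genes that rose ran from 7.86 to 123, so members of the family did not move by a common factor. A further LHCB2.1 match, Pp1s52_157V6, with 3866, 1040, 1351 and 629 tags, differed by 1.69-fold (1.56 to 1.84) and was not called. Tags shared by more than 1 gene had been removed before deposit, so each count covers only the tags particular to that copy, and the size of a change in such near-identical copies is uncertain.

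Most subunit genes of both photosystems rose, and none fell. Photosystem I had 20 of 23 tested subunit genes up and 0 down, the highest share of any list, and a median log2 change of 4.44. Photosystem II and its oxygen-evolving complex had 29 of 46 up and 0 down, with 17 not called and a median of 2.86. PSAH2 (Pp1s206_11V6), a small subunit at the docking face for the mobile antenna, had 108, 42, 10732 and 770 tags and rose 333-fold (246 to 462). Its level at 48 h was far above that of fresh protoplasts. PSAL (Pp1s41_267V6) had 1457, 103, 5604 and 96 tags, a rise of 70.8-fold (58.3 to 86.9), and another copy of the same subunit, Pp1s54_165V6, had 37, 16, 765 and 96 tags, a rise of 62.2-fold (38.1 to 109). The remaining copy, Pp1s15_408V6, with 371, 125, 245 and 94 tags, was 2.55-fold (2.05 to 3.19) higher and not called. On the photosystem II side, PSBQA (Pp1s1_461V6), of the oxygen-evolving complex, had 514, 29, 3706 and 20 tags and rose 166-fold (116 to 249). PSBO2 (Pp1s421_3V6), the manganese-stabilising protein of that complex, had 916, 70, 4341 and 690 tags and rose 80.7-fold (63.8 to 104). PSBX (Pp1s116_110V6), with 2110, 141, 10491 and 610 tags, rose 96.9-fold (82 to 115). Among the 17 not called were PSBP-1 (Pp1s63_71V6), a copy of another oxygen-evolving subunit with 143, 325, 295 and 426 tags, and PSB29 (Pp1s172_23V6), an assembly factor with 990, 911, 397 and 466 tags. Their ratios were 1.18-fold (1.01 to 1.39) higher and 1.76-fold (1.57 to 1.99) lower.

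Genes for the carriers between and after the photosystems rose as well. Of 16 tested genes for cytochrome b6f, plastocyanin, ferredoxin and ferredoxin-NADP reductase, 10 rose and 0 fell (median 3.54). FED A (Pp1s143_177V6), a ferredoxin that takes electrons from photosystem I, had 285, 124, 2852 and 25 tags and rose 29.9-fold (25 to 36.1). The 3 plastocyanin copies, which carry electrons to photosystem I, rose by near-equal factors. Pp1s27_130V6 had 912, 147, 1921 and 847 tags, a rise of 17-fold (14.4 to 20.3), and Pp1s3_520V6 had 1513, 66, 755 and 99 tags, a rise of 14.9-fold (11.6 to 19.5). Pp1s254_25V6 had 292, 109, 1142 and 385 tags, a rise of 13.6-fold (11.2 to 16.8), and its interval overlaps those of the other copies. PETC (Pp1s35_78V6), the Rieske iron-sulfur protein of cytochrome b6f, had 508, 137, 384 and 109 tags, was 3.65-fold (2.99 to 4.47) higher and missed the call. Of 9 tested plastid ATP synthase genes 6 rose and 0 fell (median 2.63, 3 up and 0 down on total gene tags), with folds from 4.56 to 45.6. The highest was a subunit B/B′ gene, Pp1s15_26V6, with 207, 9, 315 and 26 tags.

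Among chlorophyll and tetrapyrrole synthesis genes, those that rose were many more than those that fell. In this list 12 of 28 tested genes rose and 1 fell (median 2.20). Both PORA matches, which encode the light-requiring protochlorophyllide reductase, rose. Pp1s146_112V6 had 281, 50, 1003 and 207 tags, a rise of 26.1-fold (19.7 to 35.4), and Pp1s108_171V6 had 814, 53, 623 and 429 tags, a rise of 15.3-fold (11.5 to 20.7). CHLM (Pp1s372_25V6), the magnesium-protoporphyrin methyltransferase, had 152, 14, 324 and 54 tags and rose 30.1-fold (17.7 to 55.7). ALB1 (Pp1s66_287V6), a magnesium chelatase subunit, had 187, 21, 362 and 168 tags and rose 22.4-fold (14.5 to 36.7), whereas CHLI1 (Pp1s51_315V6), another chelatase subunit, had 676, 502, 542 and 162 tags, a ratio of 1.41-fold (1.24 to 1.59), and was not called. The gene that fell, FC2 (Pp1s364_8V6), with 107, 111, 18 and 30 tags and 4.74-fold (2.86 to 8.29) lower, encodes ferrochelatase, which puts iron into the same precursor to make haem. FC2 lost its call at the dispersion of 0.16.

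Genes of light protection and carotenoid synthesis rose in part. Of 37 tested genes 10 rose and 0 fell (median 1.60). ELIP1 (Pp1s371_45V6), an early light-induced protein, had 0, 127, 1767 and 209 tags and rose 18.1-fold (15.1 to 21.9). It was at 0 in fresh protoplasts and had tags in the dark library. Another ELIP1 match, Pp1s196_69V6, showed the same order with 2, 391, 1164 and 151 tags, and at 3.88-fold (3.45 to 4.36) stayed just under the 4-fold limit. NPQ4 (Pp1s241_86V6), matching the sensor protein PsbS that sets energy dissipation in flowering plants, had 225, 19, 629 and 54 tags and rose 43.1-fold (27.4 to 72.1). NPQ1 (Pp1s161_120V6), matching violaxanthin de-epoxidase, had 174, 24, 317 and 88 tags and rose 17.2-fold (11.3 to 27.2). The ABA1 match Pp1s321_9V6, for zeaxanthin epoxidase, the enzyme of the reverse reaction, had 276, 258, 91 and 78 tags, 2.18-fold (1.71 to 2.8) lower and not called.

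Genes for building the plastid were mixed. Of 76 tested genes for import, plastid transcription and thylakoid assembly 12 rose and 5 fell (median 0.90), and the list took about the same share of tags at both times, 0.473% and 0.476%. Those that rose included lumen proteins, such as Pp1s363_23V6 with 492, 41, 710 and 257 tags, a rise of 22.5-fold (16.4 to 31.7). Those that fell included the import channel TOC75-III (Pp1s23_111V6), with 402, 280, 6 and 96 tags, a fall of 35.9-fold (16.3 to 98.5), and the import cochaperone TIC40 (Pp1s110_13V6), with 178, 211, 3 and 15 tags, a fall of 54-fold (18.2 to 264). The plastid RNA polymerase sigma factor SIGE (Pp1s92_33V6) fell too, from 392 to 40 tags, 7.53-fold (5.43 to 10.7). Another import subunit, TIC110 (Pp1s509_22V6), rose from 50 to 289 tags, 7.52-fold (5.56 to 10.4), so this machinery did not move as a block.

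**Figure D3:**
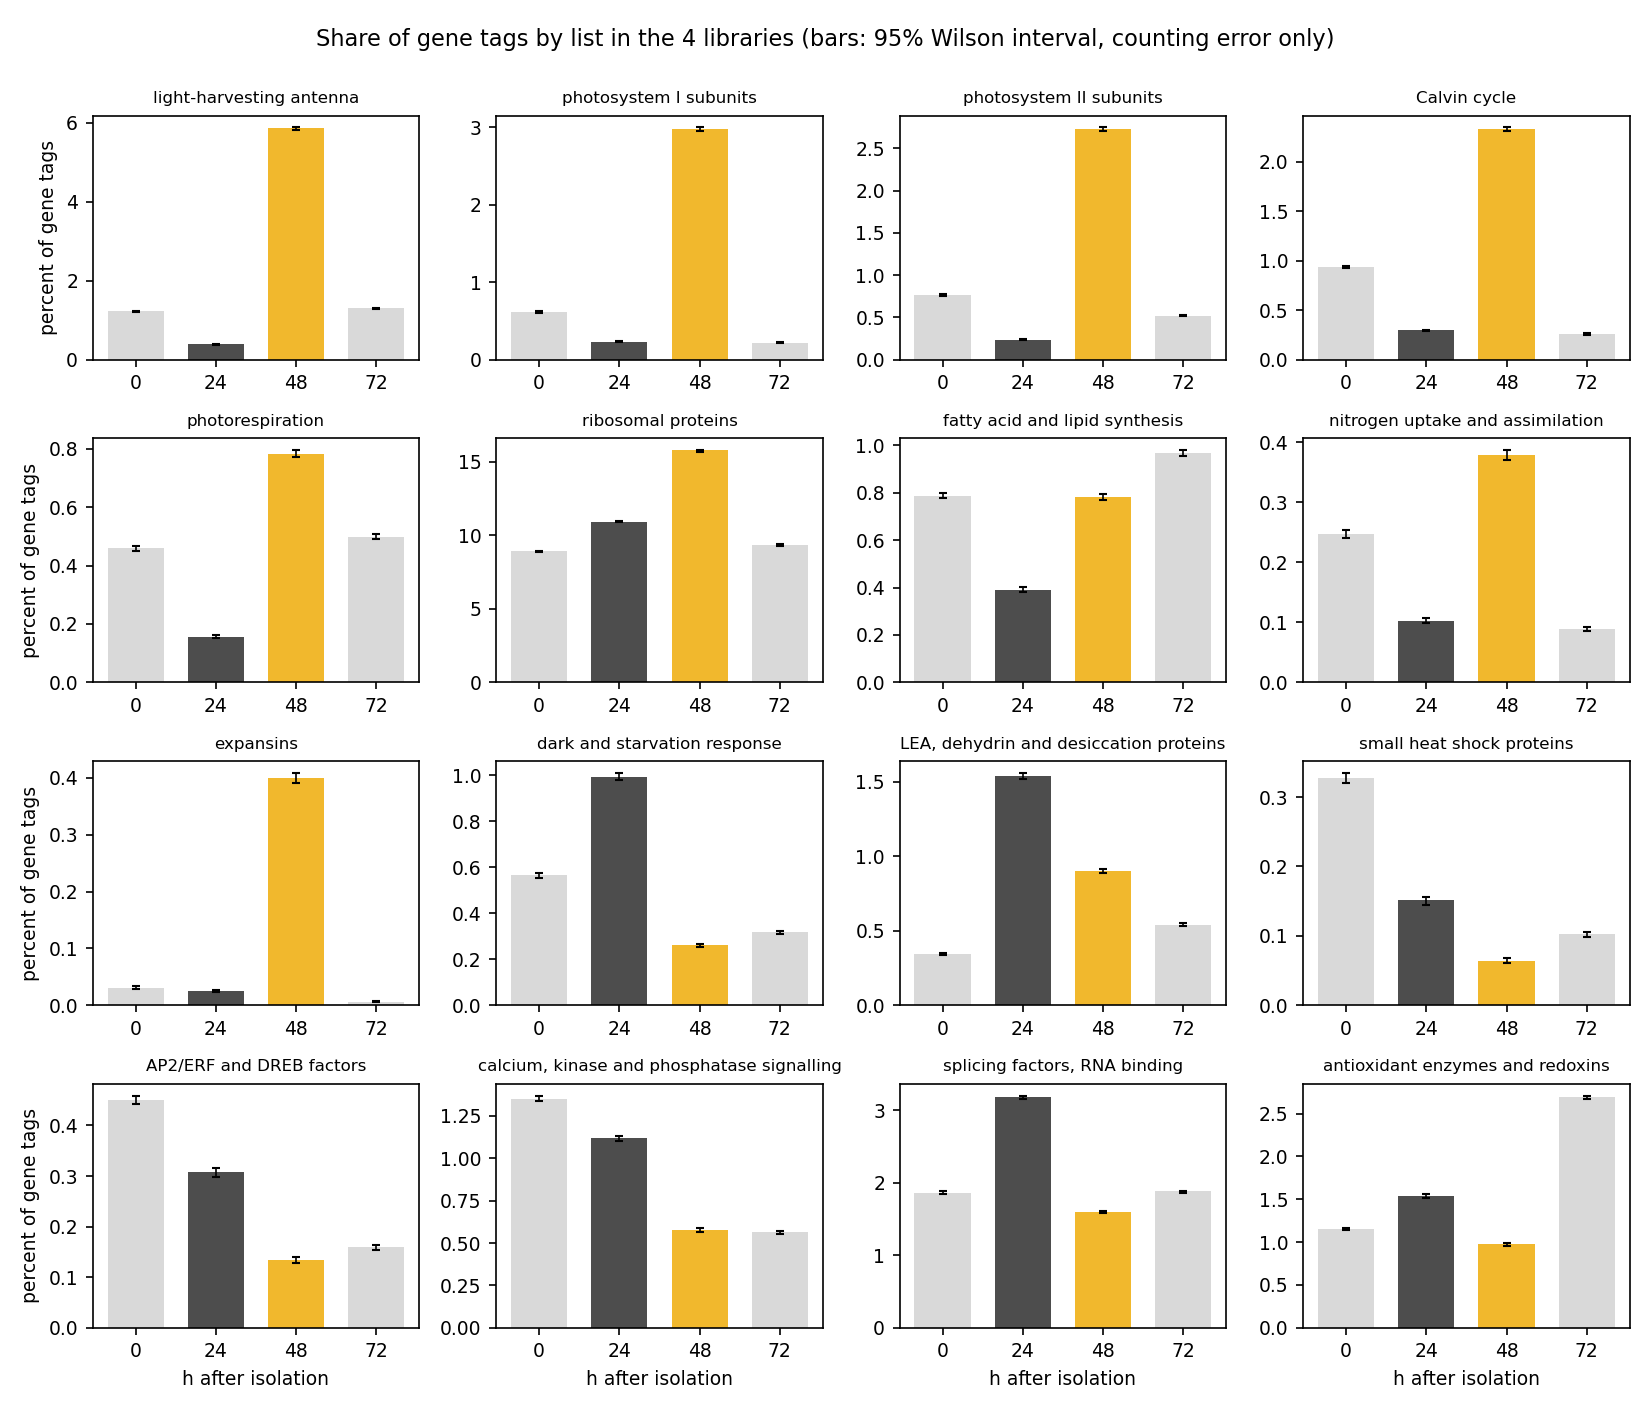
Percent of all gene tags taken by 16 gene lists at 0, 24 (dark grey), 48 (yellow) and 72 h after isolation, each panel on its own axis from 0, with Wilson 95% intervals for counting error. Antenna, photosystem, Calvin cycle, ribosomal and expansin tags peaked at 48 h, and starvation and LEA tags at 24 h.

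A majority of the tested genes of carbon fixation rose. Of 45 tested Calvin cycle genes 25 rose and 0 fell (median 2.50, 20 up and 1 down on total gene tags), and 44 had a higher level at 48 h whether called or not. The list held 0.94%, 0.296%, 2.33% and 0.26% of the gene tags at 0, 24, 48 and 72 h. Small subunit genes of RuBisCO, the carbon-fixing enzyme, were at or near 0 at 24 h and abundant at 48 h. RBCS1A (Pp1s66_48V6) had 141, 0, 1496 and 2 tags, a rise of at least 649-fold, and Pp1s374_42V6 had 23, 0, 739 and 2 tags, a rise of at least 321-fold. Pp1s352_14V6 had 221, 23, 1934 and 9 tags and rose 109-fold (72.7 to 173). These 3 small subunit genes were near 0 again at 72 h. PGK1 (Pp1s201_82V6), phosphoglycerate kinase, had 1047, 2, 794 and 67 tags and rose 517-fold (143 to 4275), the wide interval reflecting its 2 tags at 24 h. GAPB (Pp1s86_156V6), the plastid glyceraldehyde-3-phosphate dehydrogenase, had 723, 22, 2117 and 91 tags and rose 125-fold (82.5 to 200.3). HCEF1 (Pp1s153_72V6), matching the plastid fructose-1,6-bisphosphatase, had 268, 37, 2055 and 245 tags and rose 72.3-fold (52.3 to 103). CP12-1 (Pp1s25_110V6), a linker protein that holds Calvin cycle enzymes inactive in darkness, had 794, 545, 973 and 968 tags, 2.32-fold (2.09 to 2.59) higher and not called.

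Photorespiration, which recovers carbon from the oxygenase reaction of RuBisCO, had several genes that rose. Of 26 tested genes 8 rose and 0 fell (median 1.44). PGLP1 (Pp1s34_237V6), the first enzyme of the path, had 293, 15, 722 and 5 tags and rose 62.7-fold (37.7 to 113). Genes for the mitochondrial glycine step were among them. A glycine cleavage T-protein gene, Pp1s91_92V6, had 654, 43, 1566 and 858 tags, a rise of 47.4-fold (35 to 65.8), and GLDP2 (Pp1s276_86V6) had 404, 78, 965 and 254 tags, a rise of 16.1-fold (12.8 to 20.6). SHM1 (Pp1s21_270V6), serine hydroxymethyltransferase, had 2786, 826, 8309 and 1848 tags and rose 13.1-fold (12.2 to 14.1). The AGT matches, for the peroxisomal aminotransferase of the path, were not called. The one with the most tags, Pp1s19_25V6, had 2034, 278, 817 and 5748 tags and a ratio of 3.83-fold (3.33 to 4.4).

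Starch genes went both ways, copy by copy. In starch and sucrose synthesis 2 of 27 tested genes rose and 3 fell (2 up and 6 down on total gene tags, 2 up and 2 down at the dispersion of 0.16), and in starch and sugar breakdown 4 of 32 rose and 5 fell. The list medians, -0.20 and -0.17, lay close to that of all genes. Among APL1 matches, the large subunit of ADP-glucose pyrophosphorylase that starts starch synthesis, Pp1s347_12V6 had 36, 11, 284 and 79 tags and rose 33.6-fold (18.5 to 68.1), while Pp1s397_21V6 had 5, 322, 2 and 46 tags and fell 124-fold (34 to 1026). Starch synthases split too: SSI1 (Pp1s404_31V6) rose from 4 to 201 tags, 65.4-fold (25.2 to 242), and SS4 (Pp1s302_43V6) fell from 115 to 5 tags, 17.7-fold (7.36 to 55.4). On the breakdown side, the beta-amylase match Pp1s233_4V6 (BAM1) had 370, 984, 114 and 217 tags and fell 6.63-fold (5.46 to 8.12), and the debranching enzyme LDA (Pp1s142_79V6) had 72, 271, 6 and 43 tags and fell 34.7-fold (15.7 to 95.4). A BAM2 match, Pp1s9_318V6, rose instead, from 25 to 259 tags, 13.5-fold (8.93 to 21.2), and the phosphorylase PHS2 (Pp1s30_182V6) rose from 21 to 210 tags, 13-fold (8.3 to 21.5). The BAM1 match was not called at the dispersion of 0.16.

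In central carbon metabolism genes for some enzymes rose and for others fell. Of 82 tested glycolysis and gluconeogenesis genes 13 rose and 6 fell (8 up and 8 down on total gene tags), with a median of 0.14 that turned to -0.40 on total gene tags. A phosphoglycerate mutase gene, Pp1s215_24V6, had 360, 145, 1779 and 629 tags and rose 16-fold (13.5 to 19). Pyruvate kinase genes differed, since Pp1s170_89V6 rose from 96 to 765 tags, 10.4-fold (8.38 to 13), and Pp1s392_18V6 fell from 568 to 95 tags, 4.59-fold (3.69 to 5.77). PCK1 (Pp1s133_10V6), phosphoenolpyruvate carboxykinase, the entry to gluconeogenesis, had 1759, 1344, 182 and 4233 tags and fell 5.67-fold (4.86 to 6.66). PPDK (Pp1s23_50V6), pyruvate orthophosphate dikinase, had 321, 832, 42 and 508 tags and fell 15.2-fold (11.2 to 21.3). GAPC1 (Pp1s49_96V6), a cytosolic glyceraldehyde-3-phosphate dehydrogenase, had 132, 361, 0 and 31 tags and fell at least 92.4-fold. Its more abundant relative GAPC2 (Pp1s353_25V6), with 898, 2638, 1046 and 5595 tags, was 1.94-fold (1.8 to 2.08) lower and not called. PCK1 and the pyruvate kinase gene that fell were not called at the dispersion of 0.16.

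The citric acid and glyoxylate cycle list had 11 of 42 tested genes up and 3 down (median 1.04, 7 up and 4 down on total gene tags). The 3 that fell included MLS (Pp1s40_9V6), malate synthase, particular to the glyoxylate cycle, which had 21, 846, 34 and 16 tags and fell 19.1-fold (13.6 to 27.8). With it fell CSY3 (Pp1s56_241V6), matching a peroxisomal citrate synthase, from 183 to 17 tags, 8.27-fold (5.03 to 14.5), and ATCS (Pp1s37_33V6), from 600 to 51 tags, 9.04-fold (6.78 to 12.3). Among those that rose, PMDH1 (Pp1s38_300V6), matching a peroxisomal malate dehydrogenase, had 544, 64, 963 and 202 tags, a rise of 19.6-fold (15.2 to 25.6). In the respiratory chain 16 of 67 genes rose and 2 fell (8 up and 3 down on total gene tags), with a median of 1.05. A cytochrome c1 gene, Pp1s2_788V6, had 140, 103, 1420 and 301 tags and rose 17.9-fold (14.7 to 22.1). Complex I subunits differed: the NDUFS6 match Pp1s131_195V6 rose from 18 to 252 tags, 18.2-fold (11.3 to 31.3), whereas CI51 (Pp1s5_351V6) fell from 150 to 0 tags, at least 38.4-fold.

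Genes of dark and starvation responses, chiefly amino acid and lipid breakdown and autophagy, fell more often than they rose. Of 73 tested genes 13 fell and 3 rose (3 up and 20 down on total gene tags), and the median log2 change was -1.73. Their share of tags was 0.992% at 24 h and 0.26% at 48 h. Enzymes of branched-chain amino acid metabolism were among those that fell. ATBCAT-5 (Pp1s163_127V6), an aminotransferase of these amino acids whose description does not say synthesis or breakdown, had 117, 1050, 11 and 82 tags. It fell 73.3-fold (40.8 to 147). IVD (Pp1s242_101V6), isovaleryl-CoA dehydrogenase, an enzyme of their breakdown, had 430, 1286, 76 and 443 tags and fell 13-fold (10.3 to 16.6). ETFQO (Pp1s6_375V6), which passes the electrons of that reaction to ubiquinone, had 195, 305, 0 and 9 tags and fell at least 78.1-fold. MGL (Pp1s2_113V6), which degrades methionine, had 126, 1323, 29 and 173 tags and fell 35-fold (24.3 to 52.5). DYL1 (Pp1s291_22V6), a dormancy-associated protein, had 112, 1198, 54 and 248 tags and fell 17-fold (13 to 22.8). The autophagy genes with the most tags were not called: ATG8D (Pp1s249_49V6), for the ubiquitin-like protein that coats autophagosomes, had 679, 1073, 236 and 1121 tags, 3.49-fold (3.03 to 4.04) lower. Against the list's direction, PKT3 (Pp1s55_275V6), a peroxisomal thiolase of fatty acid breakdown, had 36, 14, 457 and 8 tags and rose 42.5-fold (25.1 to 78.3). DIN11 (Pp1s327_42V6) had 37, 23, 119 and 43 tags and rose 6.73-fold (4.28 to 11). The third to rise, a fumarylacetoacetase gene (Pp1s142_144V6), had 129, 22, 112 and 165 tags, 6.63-fold (4.17 to 11). At the dispersion of 0.16, 1 gene of the list rose and 8 fell. Outside the list, GAD4 (Pp1s8_163V6), glutamate decarboxylase, had 5, 348, 0 and 21 tags and fell at least 89.1-fold.

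Genes for ammonium uptake and assimilation were among those that rose. Of 28 tested nitrogen genes 6 rose and 0 fell, while the median stayed at 0.01 and was -0.51 on total gene tags. The 6 encode transporters and enzymes between uptake and glutamate. GSR2 (Pp1s241_33V6), a glutamine synthetase, had 949, 50, 2783 and 146 tags and rose 72.5-fold (54.8 to 97.9). GS2 (Pp1s40_17V6), matching the plastid form, had 1033, 79, 1198 and 112 tags and rose 19.7-fold (15.7 to 25.1). GLU1 (Pp1s212_44V6), glutamate synthase, had 381, 134, 1845 and 94 tags and rose 17.9-fold (15 to 21.5). The ammonium transporter match Pp1s33_381V6 (AMT1;2) had 135, 22, 145 and 15 tags and rose 8.58-fold (5.46 to 14.1), and a second, Pp1s475_29V6, had 435, 66, 293 and 252 tags and rose 5.78-fold (4.41 to 7.67). NIR1 (Pp1s197_146V6), nitrite reductase, had 192, 19, 174 and 31 tags and rose 11.9-fold (7.41 to 20.3). The transporter Pp1s475_29V6 was not called on total gene tags or at the dispersion of 0.16.

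Sulfur metabolism was divided. Of 30 tested genes 3 rose and 6 fell (median -0.46, 1 up and 6 down on total gene tags). The sulfate transporter SULTR1;1 (Pp1s22_44V6) had 236, 303, 9 and 75 tags and fell 25.9-fold (13.4 to 57.1). ATP sulfurylase, the first enzyme of assimilation, had 2 copies that crossed: Pp1s166_97V6 fell from 203 to 10 tags, 15.6-fold (8.31 to 33), and Pp1s331_37V6 rose from 28 to 137 tags, 6.37-fold (4.22 to 9.94). HMT2 (Pp1s8_46V6), which remakes methionine from homocysteine, had 138, 828, 89 and 56 tags and fell 7.15-fold (5.74 to 9.0). GSH1 (Pp1s479_14V6), the first enzyme of glutathione synthesis, had 2175, 176, 31 and 822 tags and fell 4.36-fold (2.96 to 6.61), most of its loss lying before 24 h. HMT2, GSH1 and the APS1 match that rose were not called at that dispersion.

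More lipid synthesis genes rose than fell. Of 73 tested genes 11 rose and 2 fell (median 0.57). ACP1 (Pp1s69_154V6), the acyl carrier protein on which plastid fatty acids are built, had 459, 267, 6476 and 188 tags and rose 31.6-fold (27.9 to 35.8). Subunits of acetyl-CoA carboxylase, the committing enzyme, rose together: CAC1 (Pp1s15_270V6) from 12 to 209 tags, 22.7-fold (12.7 to 44.6), and CAC2 (Pp1s18_23V6) from 55 to 477 tags, 11.3-fold (8.53 to 15.2). Genes for thylakoid lipid synthesis that rose included MGD1 (Pp1s20_66V6), from 36 to 233 tags, 8.42-fold (5.91 to 12.3), and SQD1 (Pp1s58_251V6), from 124 to 841 tags, 8.83-fold (7.3 to 10.7). FAD7 (Pp1s65_6V6), a plastid desaturase, had 67, 3, 258 and 40 tags and rose 112-fold (37.9 to 546). In phenylpropanoid and flavonoid synthesis 7 of 37 rose and 1 fell, with a median of 1.75. PAL1 (Pp1s43_67V6), phenylalanine ammonia-lyase, the entry enzyme, had 75, 10, 244 and 68 tags and rose 31.8-fold (17 to 67.1). HCT (Pp1s15_356V6), an acyltransferase of the path, had 249, 48, 677 and 81 tags and rose 18.4-fold (13.7 to 25.1). Dirigent-like genes included Pp1s252_5V6, with 495, 61, 2617 and 5478 tags, a rise of 55.8-fold (43.3 to 73.2). Of 37 tested cytochrome P450 genes 1 rose and 7 fell, among the latter CYP98A3 (Pp1s91_192V6), from 442 to 52 tags, 6.53-fold (4.89 to 8.88). As a whole that list did not lean down: called or not, 18 were higher and 19 lower. Its median of -0.19 lay above the -0.30 of all genes. CYP98A3 was not called at the dispersion of 0.16.

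Ribosomal protein genes formed the largest list to lean up. Of 457 tested genes 99 rose and 19 fell, against 7.5% and 6.88% of all genes, and the median log2 change was 0.87. Of the 315 that reached 100 tags, 99 rose and 19 fell, beside 20.9% and 19.2% of all genes with 100 tags. Their share of the gene tags went from 10.9% at 24 h to 15.8% at 48 h, beside 8.91% at 0 h and 9.34% at 72 h. A ribosomal protein S3Ae gene, Pp1s80_113V6, had 21, 12, 2057 and 235 tags and rose 223-fold (127 to 433). An L13 family gene, Pp1s63_162V6, had 8, 27, 1584 and 225 tags and rose 76.4-fold (52.3 to 116). Plastid ribosome proteins were among those with the largest rises, with 417, 77, 2623 and 447 tags for PSRP4 (Pp1s258_80V6), a rise of 44.3-fold (35.3 to 56.4), and 22, 16, 761 and 5 tags for a PSRP-3/Ycf65 gene (Pp1s242_42V6), a rise of 61.9-fold (37.9 to 109). Other subunits fell, and genes close to each other by ID could differ: RPL9 (Pp1s536_10V6) had 84, 3, 357 and 62 tags and rose 155-fold (52.6 to 755), while RPL18 (Pp1s536_8V6) had 956, 1348, 114 and 178 tags and fell 9.08-fold (7.5 to 11.1). The gene with the most tags among those that fell, for S30 (Pp1s283_53V6), had 6598, 5114, 430 and 733 tags and fell 9.14-fold (8.28 to 10.1). The gene with the most tags at 24 and 48 h together among those not called, a 60S acidic protein gene (Pp1s152_152V6), had 2255, 3683, 9981 and 2103 tags and was 3.53-fold (3.4 to 3.66) higher.

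Translation factors and tRNA synthetases were more evenly divided in counts than ribosomal proteins, a difference that was not tested. Of 110 tested initiation and elongation factors 15 rose and 12 fell (9 up and 15 down on total gene tags, 6 up and 7 down at the dispersion of 0.16), with a median of 0.21 that was -0.33 on total gene tags. Factors of bacterial type among those that rose were elongation factor Ts (Pp1s74_243V6, emb2726), with 46, 17, 583 and 42 tags, a rise of 44.6-fold (27.6 to 77.2), and elongation factor P (Pp1s49_243V6), with 200, 68, 573 and 59 tags, a rise of 11-fold (8.52 to 14.3). Cytosolic initiation factors that fell included 2 EIF4A1 matches, RNA helicases that unwind messenger RNA: Pp1s136_29V6 fell from 358 to 14 tags, 19.6-fold (11.6 to 36.3), and Pp1s31_150V6 from 216 to 13 tags, 12.8-fold (7.31 to 24.4). Another EIF4A1 match, Pp1s77_16V6, had 770, 767, 1979 and 1249 tags, 3.36-fold (3.09 to 3.66) higher and not called. A SUI1 family initiation factor, Pp1s4_134V6, had 15742, 1993, 147 and 145 tags and fell 10.4-fold (8.81 to 12.4), having lost most of its tags before 24 h. Of 38 tested aminoacyl-tRNA synthetases 6 rose and 2 fell (5 up and 4 down on total gene tags), with a median of 0.51 that was -0.04 on total gene tags. HRS1 (Pp1s38_401V6) rose from 10 to 168 tags, 21.9-fold (11.6 to 46.4).

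Protein breakdown and folding genes moved both ways. Proteasome subunits had 4 of 51 up and 3 down (median -0.44, 2 up and 4 down on total gene tags). The core subunits PBC1 (Pp1s130_217V6), from 23 to 420 tags, 23.8-fold (15.6 to 37.9), and PAD2 (Pp1s234_64V6), from 23 to 372 tags, 21.1-fold (13.8 to 33.6), rose, while the regulatory subunit RPN1A (Pp1s3_553V6) fell from 445 to 51 tags, 6.7-fold (5.01 to 9.14). Ubiquitin and ubiquitin ligase genes had 16 of 408 up, 3.92%, and 32 down, 7.84% (10 up and 43 down on total gene tags), with a median of -0.76. RING ligases that fell included 2 RHF2A matches, Pp1s158_15V6 from 409 to 7 tags, 44.9-fold (21.6 to 112), and Pp1s159_31V6 from 334 to 9 tags, 28.5-fold (14.8 to 62.9). In contrast, UBC19 (Pp1s177_14V6), matching an E2 enzyme of the cell cycle in Arabidopsis, had 54, 0, 206 and 0 tags and rose at least 89.4-fold. Proteases were even, with 13 of 227 up and 14 down (median -0.19, 8 up and 18 down on total gene tags). A peptidase M1 gene, Pp1s90_110V6, had 1459, 1280, 24 and 1030 tags and fell 41-fold (27.4 to 64.2), and an aspartyl protease gene, Pp1s6_43V6, had 85, 35, 639 and 116 tags and rose 23.8-fold (16.9 to 34.4). Of 49 tested chaperonin and prolyl isomerase genes 8 rose and 4 fell (median 0.70, 5 up and 5 down on total gene tags). CPN60A (Pp1s114_95V6), which folds RuBisCO in the plastid, rose from 84 to 551 tags, 8.54-fold (6.78 to 10.9), and the thylakoid lumen isomerase FKBP13 (Pp1s347_30V6) from 39 to 577 tags, 19.3-fold (13.9 to 27.4). A TCP-1/cpn60 gene, Pp1s162_9V6, fell from 683 to 42 tags, 12.5-fold (9.14 to 17.5). RPN1A was not called at the dispersion of 0.16.

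Among small heat shock, LEA and dehydrin genes more fell than rose. Of 16 tested small heat shock protein genes 3 fell and 0 rose (median -1.08), and only 7 reached 100 tags. A HSP20-like gene, Pp1s350_28V6, had 86, 399, 0 and 346 tags and fell at least 102-fold. HSP21 (Pp1s38_338V6), a plastid member, had 187, 198, 4 and 5 tags and fell 38-fold (14.6 to 141). Another HSP20-like gene, Pp1s107_27V6, had the most tags of the list, with 1125, 855, 795 and 694 tags, and was 1.21-fold (1.1 to 1.33) higher and not called. HSA32 (Pp1s33_245V6), matching a protein of long-term heat tolerance in Arabidopsis, had 237, 741, 0 and 77 tags and fell at least 189.8-fold. LEA, dehydrin and desiccation genes had 7 of 51 down and 3 up (median -0.88), with 1.54% of tags at 24 h and 0.901% at 48 h. Of the 33 that reached 100 tags, 7 fell and 3 rose, beside 19.2% and 20.9% of all genes with 100 tags. The share that fell was thus near that of equally counted genes. A LEA gene, Pp1s379_42V6, had 37, 1128, 8 and 170 tags and fell 108-fold (54.8 to 252). COR47 (Pp1s421_9V6), a dehydrin match, had 2, 773, 34 and 60 tags and fell 17.5-fold (12.4 to 25.4). Against these, a low temperature and salt responsive gene, Pp1s71_227V6, had 32, 97, 579 and 690 tags and rose 7.77-fold (6.26 to 9.74). Another LEA gene, Pp1s12_379V6, had 1228, 1910, 2248 and 1039 tags and was not called.

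The large HSP families did not move as a block, with 6 of 139 up and 6 down (median -0.26, 5 up and 13 down on total gene tags). BIP2 (Pp1s181_3V6), the HSP70 of the endoplasmic reticulum, had 1006, 115, 1490 and 1838 tags and rose 16.9-fold (13.9 to 20.6). HSP90.1 (Pp1s258_52V6) had 1026, 161, 2 and 65 tags and fell 61.8-fold (16.8 to 515). A chloroplast HSP70 match (Pp1s115_168V6) had 668, 481, 11 and 604 tags and fell 33.6-fold (18.6 to 67.7). HSC70-1 (Pp1s97_279V6), used by the study as the reference gene of its quantitative PCR, had 379, 581, 1233 and 110 tags, 2.76-fold (2.5 to 3.05) higher at 48 h and not called. Antioxidant enzymes and redoxins had 11 of 110 up and 8 down (7 up and 11 down on total gene tags, 4 up and 4 down at the dispersion of 0.16), with a median of 0.35 that was -0.19 on total gene tags. Plastid redox enzymes among those that rose were the thioredoxin match ATHM2 (Pp1s106_68V6), from 25 to 358 tags, 18.6-fold (12.4 to 29.2), and APX4 (Pp1s30_255V6), from 40 to 633 tags, 20.6-fold (15 to 29.1). CAT1 (Pp1s3_465V6), catalase, had 85, 685, 25 and 280 tags and fell 21-fold (14.1 to 32.8). PER1 (Pp1s12_126V6), a peroxiredoxin of seeds in Arabidopsis, had 17, 3643, 551 and 2673 tags and fell 5.08-fold (4.64 to 5.57). It had fewer tags at 48 h than at 24 or 72 h and the fewest in fresh protoplasts. PER1 was not called at the dispersion of 0.16. The copper/zinc superoxide dismutase match CSD1 (Pp1s44_277V6) had 1879, 4628, 956 and 30142 tags, 3.72-fold (3.47 to 3.99) lower and not called. Glutathione S-transferases had 1 of 21 up and 1 down (median -0.63, 1 up and 3 down on total gene tags), and class III peroxidases 1 of 12 up and 0 down (median 0.71). That peroxidase gene, Pp1s433_15V6, had 520, 2, 180 and 2 tags and rose 117-fold (32 to 975).

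Expansins, proteins that loosen the wall as cells grow, had 1 of the 2 largest median changes of any list, with photosystem I. Of 22 expansin genes 15 were tested, 8 rose and 0 fell, and all 15 tested had a higher level at 48 h. The median log2 change was 5.41, or 4.38 with each count of 0 set to 3 tags. On the latter setting photosystem I subunits, at 4.44, were higher. The list passed from 0.0244% of tags at 24 h (0.0222 to 0.0268) to 0.4% at 48 h (0.391 to 0.409), and held 0.00621% at 72 h. EXPA14 (Pp1s11_29V6) had 16, 4, 1636 and 0 tags and rose 532-fold (208 to 1956). EXPB3 (Pp1s251_59V6) had 2, 15, 921 and 0 tags and rose 79.9-fold (48.2 to 143). EXPA1 (Pp1s466_14V6) had 18, 0, 224 and 0 tags, a rise of at least 97.2-fold. None of these genes had a tag at 72 h, so their transcripts were seen mainly in the 48 h library. Another match to EXPA14, Pp1s75_138V6, was different: it had 29, 124, 136 and 0 tags, a ratio of 1.43-fold (1.11 to 1.84), and was not called.

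Other wall genes went up more often than down. Of 120 tested wall synthesis and remodelling genes 16 rose and 6 fell (median 0.60). A glycosyl hydrolase family 17 gene, Pp1s301_24V6, had 81, 25, 1170 and 986 tags and rose 60.9-fold (41.1 to 94.5). XYL1 (Pp1s80_200V6), which trims xyloglucan, had 14, 3, 155 and 17 tags and rose 67.3-fold (22.6 to 329.7). Pectin lyase-like genes took opposite courses. Pp1s236_72V6 had 762, 19, 579 and 23 tags and rose 39.7-fold (25.2 to 66.4), and Pp1s18_221V6 had 210, 290, 0 and 258 tags and fell at least 74.3-fold. UGE5 (Pp1s101_67V6), a sugar epimerase, had 1145, 382, 17 and 79 tags and fell 17.3-fold (10.6 to 29.9).

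Few cell cycle genes had enough tags to be called: 5 of 65 tested genes reached 100 tags. Of all 65 tested, 1 rose and 2 fell (median -0.32, 1 up and 0 down at the dispersion of 0.16). CKS2 (Pp1s36_271V6), a small subunit of cyclin-dependent kinases, had 192, 36, 341 and 199 tags and rose 12.3-fold (8.73 to 17.9). A cyclin family gene, Pp1s80_193V6, had 226, 110, 14 and 84 tags and fell 6.04-fold (3.45 to 11.4). DNA replication and repair genes had 1 of 85 up and 4 down, and a median of -1.16. Of these 85 genes 13 reached 100 tags. The gene that rose, TOPII (Pp1s109_208V6), topoisomerase II, which untangles replicated chromosomes, had 37, 15, 104 and 51 tags, a rise of 9.03-fold (5.23 to 16.7). Those that fell included a BRCT domain DNA repair gene, Pp1s232_74V6, with 254, 231, 13 and 32 tags, a fall of 13.7-fold (7.83 to 26). Of 14 tested histone genes 2 rose and 0 fell (median 1.74, 1 up and 0 down on total gene tags, 0 up and 0 down at the dispersion of 0.16), among them Pp1s3_368V6, with 67, 24, 143 and 277 tags, a rise of 7.76-fold (5.01 to 12.5). Chromatin modifiers had 1 of 122 up and 2 down (median -1.23, 0 up and 4 down on total gene tags). Called or not, 92 had a lower level at 48 h. Only 16 of the 122 reached 100 tags, and genes with few tags leaned lower at 48 h in general, so this median is not particular to the list. The cyclin and histone genes named here were not called at the dispersion of 0.16.

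Cytoskeleton genes had 5 of 94 up and 8 down (median -0.04, 2 up and 8 down on total gene tags). TUB8 (Pp1s252_90V6), a beta-tubulin, had 86, 74, 647 and 41 tags and rose 11.4-fold (8.94 to 14.7). PFN2 (Pp1s3_191V6), profilin, which binds actin monomers, had 339, 393, 1729 and 859 tags and rose 5.73-fold (5.13 to 6.41). Actin copies on one scaffold moved in opposite directions: Pp1s381_21V6 (ACT7) had 584, 106, 642 and 402 tags and rose 7.88-fold (6.41 to 9.78), while Pp1s381_18V6 (ACT7) had 2193, 533, 59 and 427 tags and fell 6.94-fold (5.3 to 9.24). Other actin-binding proteins that fell were the actin bundler VLN4 (Pp1s105_43V6), from 290 to 12 tags, 18.6-fold (10.5 to 36.3), and a myosin, XIE (Pp1s131_123V6), from 114 to 7 tags, 12.5-fold (5.88 to 31.8). Vesicle trafficking had as many up as down, 20 and 20 of 310 (median -0.40, 13 up and 29 down on total gene tags, 9 up and 11 down at the dispersion of 0.16), near the background. ARFA1B (Pp1s201_42V6), a small GTPase of coated vesicles, had 222, 69, 3385 and 247 tags and rose 63.9-fold (50.3 to 82.3). A Sec61-gamma gene, for the channel of secreted proteins, rose (Pp1s376_32V6), from 31 to 622 tags, 26.1-fold (18.2 to 38.8). DL1C (Pp1s162_162V6), a dynamin, had 77, 8, 283 and 114 tags and rose 46-fold (23.1 to 108). EXO70G1 (Pp1s38_352V6), of the exocyst that tethers secretory vesicles, had 34, 154, 2 and 0 tags and fell 59.2-fold (16.1 to 493). PFN2 was not called on total gene tags, nor was it or Pp1s381_18V6 at the dispersion of 0.16.

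**Figure D4:**
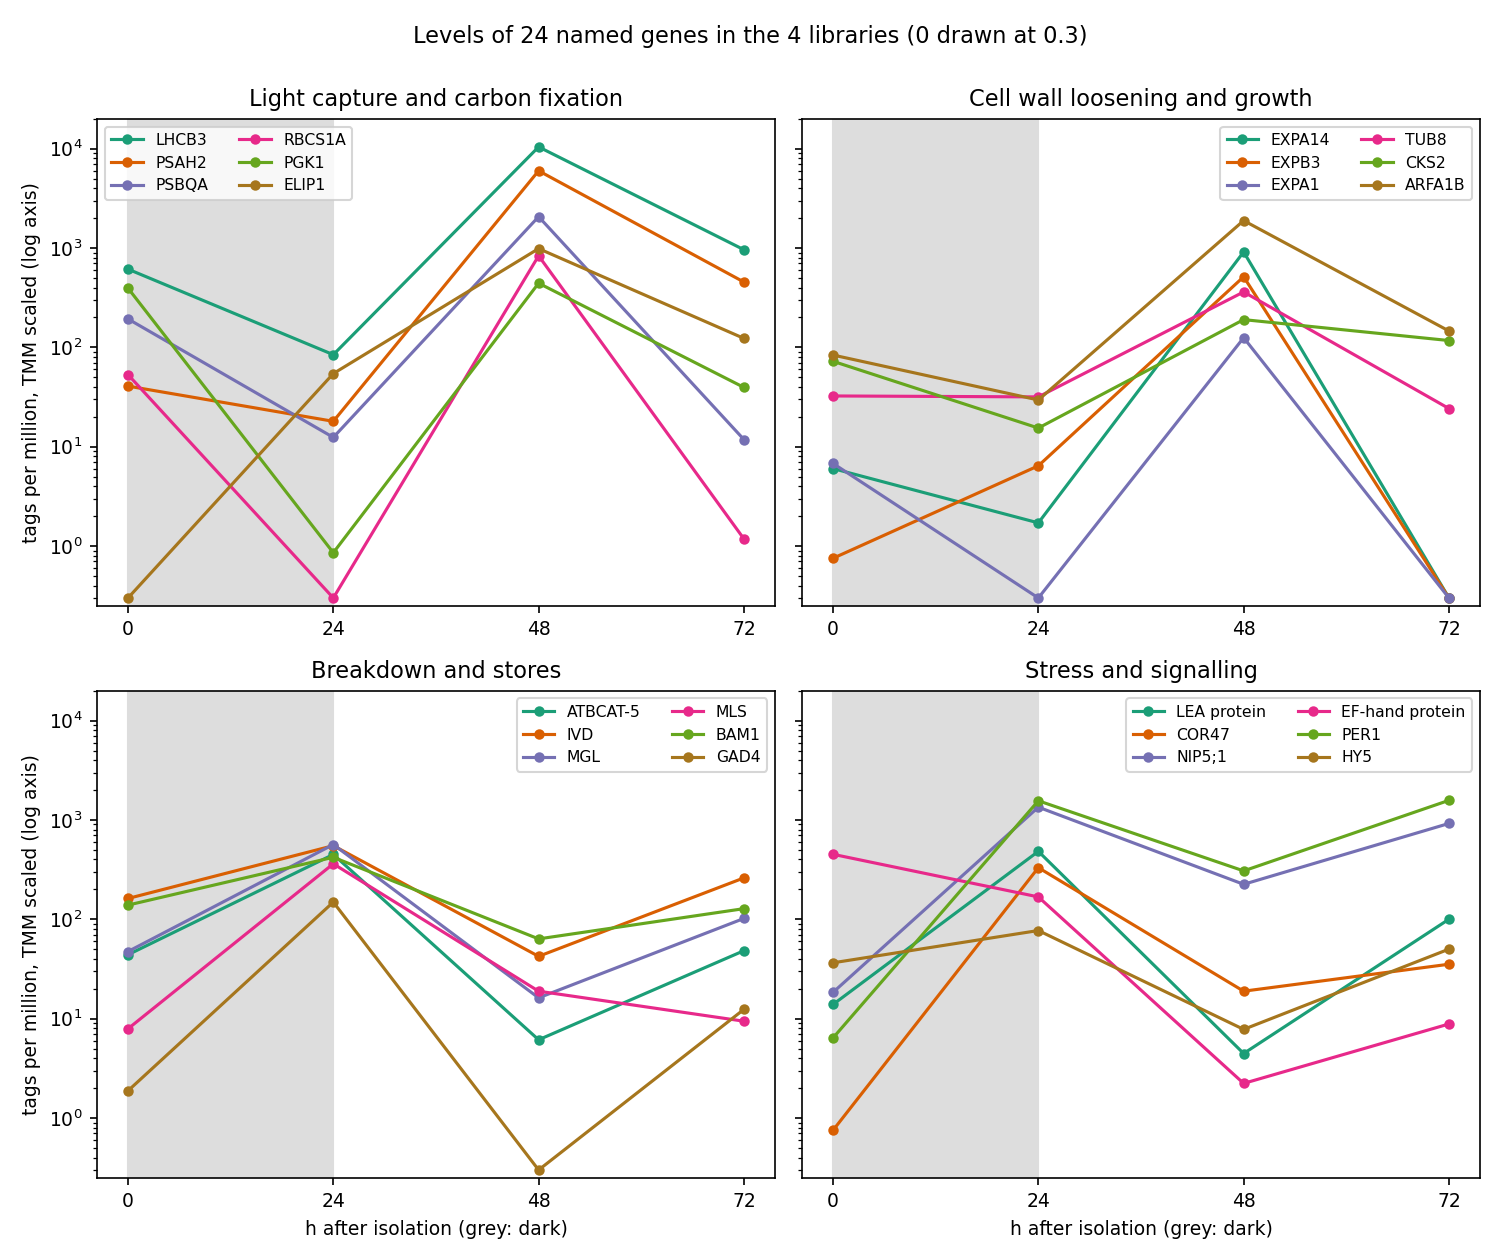
Levels of 24 named genes in the 4 libraries, in TMM-scaled tags per 1000000 on a log axis, with 0 drawn at 0.3 and the dark period shaded. The genes were picked by symbol among the called genes, so their directions follow from the choice. Those drawn for light capture and growth stand highest at 48 h, and those drawn in the lower panels are lower at 48 h than at 24 h. The lists behind the growth panel were mixed outside expansins: cytoskeleton 5 up and 8 down, vesicle trafficking 20 and 20, cell cycle 1 and 2.

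In each group of transcription factors more genes fell than rose. AP2/ERF and DREB factors had 2 of 76 up and 11 down (median -0.88). The group of MYB, bHLH, WRKY, bZIP, NAC and homeobox factors had 5 of 210 up and 14 down (median -0.48), and the group of CCAAT, heat shock, GRAS, zinc finger and MADS factors 2 of 148 up and 10 down (median -0.61, 0 up and 16 down on total gene tags). In the last groups the share that fell was near the 6.88% of all genes, and the share that rose was below 7.5%. Only 59 of the 210 and 45 of the 148 reached 100 tags and could be called. Of these, 14 of 59 and 10 of 45 fell, beside 19.2% of all genes with 100 tags. Those that rose were 5 of 59 and 2 of 45, beside 20.9%. RAP2.11 (Pp1s17_332V6), an AP2 factor, had 628, 273, 5 and 57 tags and fell 41.9-fold (17.8 to 130.2). TINY2 (Pp1s55_253V6) had 60, 227, 8 and 28 tags and fell 21.8-fold (10.9 to 51.1). An AP2 domain gene that rose, Pp1s21_214V6, had 0, 10, 249 and 26 tags, a rise of 32.4-fold (17.3 to 68.4). PHE1 (Pp1s37_353V6), a MADS-box gene, had 39, 287, 3 and 84 tags and fell 73.5-fold (24.9 to 358). ABI3 (Pp1s143_82V6), matching a regulator of seed maturation and abscisic acid response in Arabidopsis, had 131, 200, 18 and 152 tags and fell 8.54-fold (5.26 to 14.7). BZO2H3 (Pp1s206_122V6), a bZIP factor, had 1528, 601, 56 and 215 tags and fell 8.24-fold (6.26 to 11). A bZIP gene that rose, bZIP7 (Pp1s147_89V6), had 178, 139, 875 and 56 tags, a rise of 8.19-fold (6.84 to 9.87).

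Light receptors and light signalling genes moved both ways. Of 85 tested genes 4 rose and 10 fell (median -0.54, 1 up and 11 down on total gene tags). Phytochromes, the red and far-red light receptors, had a copy on each side: Pp1s164_65V6 (PHYB) had 20, 14, 152 and 9 tags and rose 14.1-fold (8.17 to 26.5), and Pp1s81_159V6 (PHYB) had 28, 121, 0 and 3 tags and fell at least 31-fold. CRY1 (Pp1s2_368V6), a blue light receptor, had 219, 76, 329 and 97 tags and rose 5.64-fold (4.38 to 7.33). The 2 PIF3 matches that were called, factors that hold back light responses in the dark in Arabidopsis, fell: Pp1s147_126V6 from 200 to 13 tags, 11.8-fold (6.76 to 22.6), and Pp1s84_22V6 from 130 to 12 tags, 8.32-fold (4.61 to 16.5). HY5 (Pp1s80_72V6), matching a factor that promotes light responses in Arabidopsis, had 97, 180, 14 and 85 tags and fell 9.88-fold (5.74 to 18.4) as well. Of clock gene matches, LHY (Pp1s325_68V6), a morning gene in Arabidopsis, had 76, 57, 202 and 0 tags and rose 4.61-fold (3.42 to 6.3), and PRR7 (Pp1s412_35V6) had 63, 129, 12 and 171 tags and fell 8.26-fold (4.57 to 16.4). The clock time of each harvest is not given in the sources used here. CRY1 and LHY were not called on total gene or clean tags, and these, PRR7 and Pp1s84_22V6 were not called at the dispersion of 0.16.

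Hormone genes had 6 of 171 up (3.51%) and 12 down (7.02%, near the 6.88% of all genes), with a median of -0.72. Only 50 of the 171 reached 100 tags and could be called. Of these 50, 6 rose and 12 fell, beside 20.9% and 19.2% of all genes with 100 tags. The oxylipin path rose at 2 successive steps: AOS (Pp1s72_301V6), allene oxide synthase, had 73, 15, 555 and 163 tags and rose 48.2-fold (28.9 to 86.6), and AOC3 (Pp1s378_11V6), allene oxide cyclase, had 71, 41, 318 and 1529 tags and rose 10.1-fold (7.28 to 14.3). DFL2 (Pp1s67_243V6), an auxin-responsive GH3 gene, had 77, 29, 575 and 16 tags and rose 25.8-fold (17.8 to 38.9). PYL11 (Pp1s105_38V6), matching the abscisic acid receptor family, had 645, 157, 3 and 284 tags and fell 40.2-fold (13.5 to 197). GA2OX8 (Pp1s375_54V6), matching a gibberellin-inactivating oxidase, had 203, 518, 28 and 28 tags and fell 14.2-fold (9.72 to 21.6). Matches to WOL, a cytokinin receptor of Arabidopsis, were called both ways: Pp1s44_240V6 had 334, 200, 0 and 6 tags and fell at least 51.2-fold, and Pp1s6_398V6 had 715, 88, 310 and 190 tags and rose 4.59-fold (3.61 to 5.88). The last gene was not called on total gene tags, on clean tags or at the dispersion of 0.16.

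Signalling genes that fell outnumbered those that rose. Receptor-like kinases had 4 of 122 up (3.28%) and 9 down (7.38%), with a median of -1.05. The share down was near the 6.88% of all genes and the share up was below 7.5%. However, only 27 of the 122 reached 100 tags and could be called. Of these 27, 4 rose and 9 fell, beside 20.9% and 19.2% of all genes with 100 tags. BAK1 (Pp1s446_18V6), a co-receptor in Arabidopsis, had 220, 164, 4 and 14 tags and fell 31.5-fold (12.1 to 117), and a leucine-rich repeat kinase gene, Pp1s57_133V6, had 171, 3, 337 and 2 tags and rose 146-fold (49.6 to 713). The list of calcium, MAP kinase, SnRK and 2C phosphatase genes had 7 of 170 up (4.12%) and 19 down (11.2%), with a median of -0.79. Calcium-binding EF-hand genes were among those that fell. Pp1s107_173V6 had 1199, 393, 4 and 15 tags, a fall of 75.5-fold (29.2 to 278), and Pp1s68_31V6 had 1827, 544, 11 and 117 tags, a fall of 38-fold (21.1 to 76.6). All 4 called genes of 9 matching the same EF-hand protein as the first of these fell. In contrast CaS (Pp1s255_55V6), a calcium sensor of thylakoids, had 362, 41, 1652 and 220 tags and rose 52.4-fold (38.5 to 73.4). A protein phosphatase 2C gene, Pp1s84_221V6, had 1004, 210, 7 and 147 tags and fell 23-fold (11 to 58).

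RNA-binding and splicing genes had 9 of 270 up, 3.33%, and 19 down, 7.04%, the latter near the 6.88% of all genes (median -0.35, 6 up and 6 down at the dispersion of 0.16). Among those that rose was the plastid protein CP29 (Pp1s91_60V6), with 195, 37, 721 and 109 tags, a rise of 25.4-fold (18.2 to 36.3). Among those that fell was the splicing factor ATU2AF65A (Pp1s79_75V6), with 161, 131, 2 and 57 tags, a fall of 50.3-fold (13.7 to 419.9). The list's share of tags was 3.18% at 24 h and 1.59% at 48 h, of which CCR1 (Pp1s42_251V6), a glycine-rich RNA-binding protein, held 1.34% and 0.201% of all gene tags. CCR1 had 6847, 23375, 3948 and 13805 tags and fell 4.55-fold (4.4 to 4.71). Without the 5 genes above 1% of either library the shares were 1.93% and 1.45%. CCR1 was not called at the dispersion of 0.16. Pentatricopeptide repeat genes, which process organelle RNA, had 4 of 48 down and 0 up (median -0.59), with 7 reaching 100 tags.

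More transporter genes fell than rose. Ion, nutrient and sugar transporters had 21 of 363 up, 5.79%, and 35 down, 9.64% (median -0.69). PHT3;1 (Pp1s61_113V6), a mitochondrial phosphate carrier, had 271, 106, 1273 and 400 tags and rose 15.6-fold (12.8 to 19.2). NHX2 (Pp1s113_117V6), a vacuolar sodium and potassium exchanger, had 24, 188, 2 and 0 tags and fell 72.2-fold (19.7 to 601), and VIT1 (Pp1s76_45V6), an iron carrier of the vacuole, had 31, 160, 0 and 25 tags and fell at least 41-fold. ABC transporters had 3 of 51 up and 5 down (median -0.52), the latter including ABCG14 (Pp1s270_82V6), from 405 to 7 tags, 44.4-fold (21.4 to 111). Aquaporins had 1 of 9 up and 1 down (median -0.16, 1 up and 2 down on total gene tags). NIP5;1 (Pp1s37_249V6), a boron channel in Arabidopsis, had 49, 3142, 404 and 1565 tags and fell 5.97-fold (5.38 to 6.64), and PIP2;4 (Pp1s32_353V6), a water channel, had 124, 27, 151 and 88 tags and rose 7.28-fold (4.81 to 11.4). Neither aquaporin was called at the dispersion of 0.16.

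Moss genes that share an Arabidopsis match usually went the same way when more than 1 was called, with clear exceptions. Of 3012 Arabidopsis genes matched by 2 or more tested moss genes, 231 had 2 or more called. Of these 231, 123 had all of them up, 64 all down and 44 both. Of all called genes 52.2% rose, and whether matches agree more often than unrelated genes was not tested. The genes matching PSAF, PSBR and PSBO2, 4 for each, all rose. Matches called both ways included PPa6 (Pp1s218_28V6), a plastid pyrophosphatase match that had 630, 263, 1117 and 411 tags and rose 5.53-fold (4.83 to 6.35), and Pp1s113_38V6 of the same match, which had 38, 137, 0 and 2 tags and fell at least 35.1-fold. Pp1s218_28V6 was not called on total gene tags, on clean tags or at the dispersion of 0.16. GPT2, a plastid glucose-6-phosphate carrier, had a copy that fell, Pp1s143_174V6, with 477, 172, 6 and 383 tags, a fall of 22-fold (9.91 to 60.8). Another copy of it, Pp1s70_177V6, with 66, 104, 620 and 134 tags, rose 7.76-fold (6.3 to 9.65). A CA2 match, for carbonic anhydrase, Pp1s196_53V6, had 54, 475, 2 and 6 tags, a fall of 182-fold (50.2 to 1511), and another match to CA2 was called higher.

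**Figure D5:**
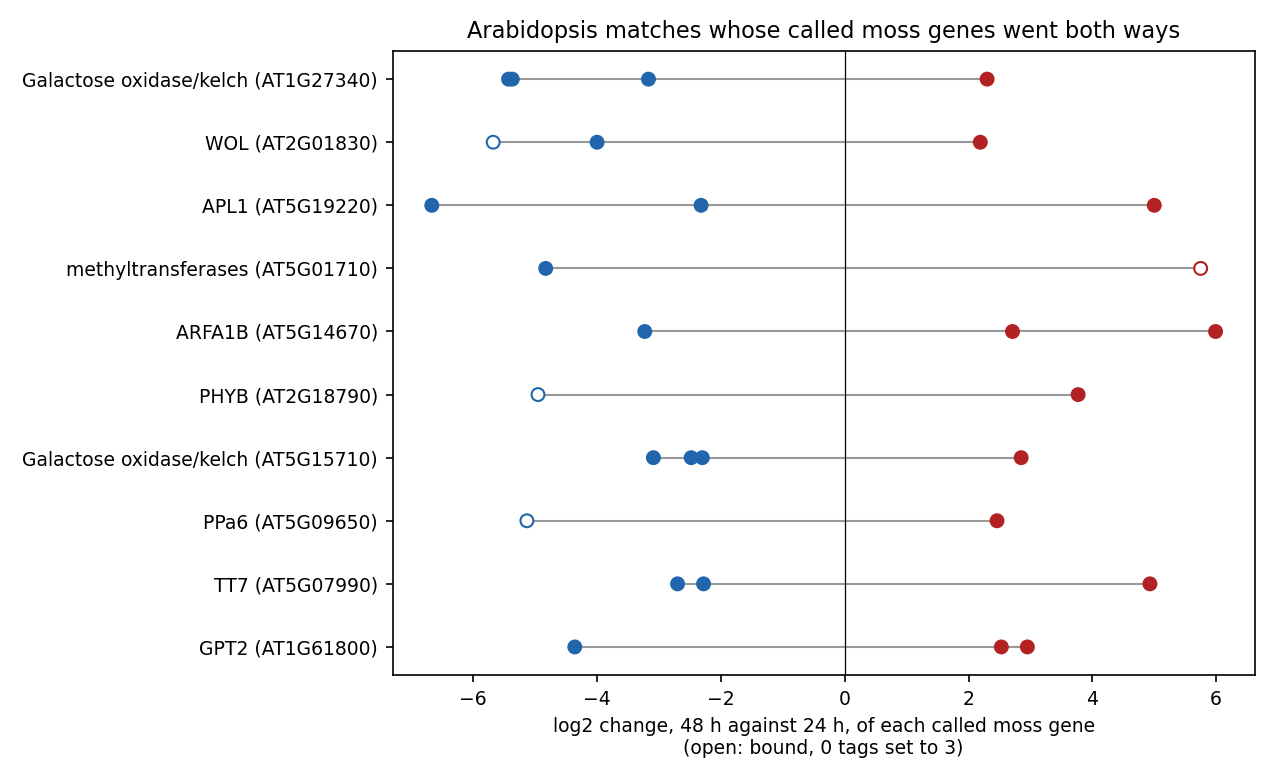
Log2 change from 24 to 48 h of each called moss gene (points, red up and blue down) for the 10 Arabidopsis matches with the largest summed change among the 44 whose called moss genes went both ways. Open points are bounds for genes at 0 tags in either library, drawn with that count at 3 tags; each line joins the genes of a match across 0.

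Many called genes, 1184 of 2059, stood in no list. Some of the largest changes were among them. UCC1 (Pp1s227_44V6), a copper-binding protein of the phytocyanin family, had 165, 24, 2175 and 758 tags and rose 118-fold (79.1 to 185). A glyoxal oxidase-related gene, Pp1s119_38V6, had 67, 0, 379 and 21 tags and rose at least 164-fold. A heavy metal transport/detoxification gene, Pp1s169_140V6, had 2992, 3099, 13 and 627 tags and fell 183-fold (107 to 344). A gene for a B12D protein, Pp1s25_135V6, had 107, 955, 2 and 12 tags and fell 367-fold (101 to 3033). A BRO1-like endosomal gene, Pp1s15_309V6, had 154, 783, 2 and 23 tags and fell 301-fold (83 to 2488).

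Genes without an Arabidopsis match were called in both directions. Of 1870 tested, 98 rose (5.24%) and 127 fell (6.79%). Pp1s385_3V6 had 0, 5, 1502 and 0 tags and rose 391-fold (167 to 1206), with hardly a tag in any other library. Pp1s296_59V6 had 603, 10, 2149 and 328 tags and rose 279.7-fold (152 to 584). Pp1s32_209V6 had 2, 3708, 16 and 23 tags and fell 178-fold (109 to 312), almost all its tags lying in the 24 h library. Pp1s10_147V6 had 3, 518, 0 and 125 tags and fell at least 133-fold. The gene with the most tags at 24 h, Pp1s52_261V6, also lacks a description and had 548, 25237, 3613 and 33573 tags, a fall of 5.37-fold (5.18 to 5.56). Pp1s350_5V6 had 3205, 14620, 26253 and 38676 tags, was 2.34-fold (2.29 to 2.39) higher at 48 h and was not called. Pp1s52_261V6 was not called at the dispersion of 0.16.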

How the data were processed

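Digital gene expression libraries of wild-type protoplasts were made by the authors with NlaIII and MmeI, and tags were mapped with Bowtie, allowing up to 1 mismatch, to the Phytozome v7.0 annotation. The authors removed tags seen once and tags matching more than 1 gene, and deposited the raw tag counts per gene used here, next to a column scaled to tags per 100000 that was not used. Symbols and descriptions are those of the best Arabidopsis match in the deposited tables. RNA was pooled, so each of the 4 time points has 1 library.

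Counts were scaled by TMM (edgeR 4.0.16 in R 4.3.3) over the 4 libraries, and the 24 h and 48 h libraries were compared by edgeR's exact test with a dispersion of 1e-09, that is, counting error alone. Genes with at least 10 tags in the pair were tested. A call needed a 4-fold ratio, 100 tags in the higher library and both p and Benjamini-Hochberg adjusted p of at most 0.01. Levels are scaled tags per 1000000, log2 changes use a prior count of 0.5, and a count of 0 was set to 3 tags for bounds. Ratio intervals are exact (Clopper-Pearson, conditional on the sum) and share intervals are Wilson, both at 95%. The calling was also run on simulated counts with counting error only, which cannot show how it behaves with variation between cultures.

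Named genes are, by the nearer end of the interval, the 25 largest rises and 25 largest falls, up to 6 called genes per direction and 2 uncalled ones with the most tags in each list, the 15 genes with the most tags at either time, the 10 matches called both ways with the largest summed change, and 5 rises and 5 falls without a match, from which the text draws examples. Members and lists were chosen with earlier results of these data known. Alternatives were other scalings (total gene tags, clean tags, DESeq2 1.42.0 size factors, TMM on the pair), thresholds, prior counts and a dispersion of 0.16. Gene IDs matched 0 entries of the RefSeq table, so no sequences are given.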

Additional observations from a re-analysis of the deposited data

How the results depend on the processing

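The calls changed in number with the rule and with scaling. With 30 tags in the higher library in place of 100, 1730 genes were called higher and 2309 lower, and with 300 tags 534 and 279. At 8-fold the counts were 549 and 531, at 2-fold 1871 and 1671, and at a dispersion of 0.16 they were 588 and 521. The median log2 change of all tested genes was -0.84 on total gene tags and -0.80 on clean tags. These scalings turned the medians of glycolysis and gluconeogenesis (-0.40 and -0.36), nitrogen assimilation (-0.51 and -0.47), translation factors (-0.33 and -0.29) and antioxidant enzymes (-0.19 and -0.15) below 0, and total gene tags that of aminoacyl-tRNA synthetases (-0.04). They lower every ratio by a common factor. Of 478 called genes under the naming rule, 449 remained called on total gene tags, 454 on clean tags and 373 at a dispersion of 0.16, and all 478 with DESeq2 size factors. In 38 of 54 lists a count moved by over 1.5 times at a dispersion of 0.16, in 24 on total gene tags and in 20 on clean tags. No paired analysis was possible because each time point has 1 library, and for the same reason no replicate could be left out. Genes under 100 tags in both libraries could not be called, and in some lists few tested genes reached that number: 5 of 65 cell cycle genes, 16 of 122 chromatin modifiers and 7 of 48 pentatricopeptide repeat genes.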
